A study of Larimichthys crocea with 4 samples.

Results

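Extracellular matrix and integrin genes were examined in liver transcriptomes of the large yellow croaker (Larimichthys crocea), a farmed marine fish. The genes were the KEGG orthology numbers whose definition in the deposited annotation names a collagen, a laminin, fibronectin 1, an integrin, a matrix metalloproteinase or a tissue inhibitor of metalloproteinase (TIMP). Complement receptors and a collagen receptor kinase that share these words were left out. The rule gave 57 of 5468 KEGG numbers, carried by 314 of 57216 unigenes, the contigs that an assembly without a genome produced. By role these were 7 structural collagens, 3 collagen-modifying enzymes, 6 laminin chains, fibronectin, 15 integrin subunits, integrin-linked kinase, the scavenger receptor MARCO, 13 ADAM and ADAMTS proteins, and 10 matrix metalloproteinases. No TIMP carried a KEGG number, and 4 TIMP unigenes are described apart, by their Swiss-Prot hit.

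The 4 libraries were liver RNA of untreated, normally fed fish, of fish without food for 21 d, of fish under cold stress for 12 h and of fish under thermal stress for 12 h. The normal feeding and fasting libraries each came from several fish, while the number of fish behind the stress libraries is not given in the sources used here. Each treated library was compared with normal feeding, and because there is 1 library per condition, no error between replicates can be given. The test (an exact two-sided binomial test on fragments, given the library totals, with Benjamini-Hochberg adjustment over all KEGG numbers) therefore compares libraries and not conditions. A gene was called higher or lower at an adjusted p under 0.05 and a ratio of at least 2-fold in CPM, the fragments of a gene scaled to the total of its library. The 95% intervals beside log2 ratios, and the floor of 3 fragments that a count of 0 allows in a library, cover counting error only. They also take fragments as independent, which PCR copies of a molecule are not. A fragment that fits several contigs may also have been counted on each of them. Intervals of sums over such contigs would then be too narrow even for counting error. Counts listed without their library are in the order normal feeding, fasting, cold stress, thermal stress.

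Collagens form the fibrils and sheets of the matrix, and laminins with type IV collagen build the basement membrane under epithelia and vessels. Fibronectin, which hepatocytes also secrete into plasma, joins collagen to cells, and cells hold the matrix through integrins, receptors made of an alpha and a beta subunit. Matrix metalloproteinases cut these proteins and TIMPs block them, and in the liver the balance of synthesis and cutting governs how much scar matrix is kept.

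Together the libraries held 71962478 fragments on unigenes, of which normal feeding gave 24.3%, fasting 27.1%, cold stress 23.7% and thermal stress 24.9%. Matrix and integrin numbers took 0.491% of these under normal feeding, 0.676% after fasting, 0.391% under cold and 0.669% under thermal stress. Between 61.9% and 75.3% of the reads on their unigenes fitted more than 1 place, against 51.0% to 60.0% over all unigenes. The liver label was met by 7 hepatocyte markers (fibrinogen chains, transferrin and others), which took between 4.60% of fragments after fasting and 8.21% under normal feeding. The 11 digestive enzyme numbers read as exocrine pancreas took 4.0% under normal feeding, 9.87% after fasting, 5.58% under cold and 4.19% under thermal stress. After fasting 8 of 11 were called higher, beside 9.68% of all numbers. Among the 11, the triacylglycerol lipase number (22192, 21615, 17956 and 31305 fragments) is led by a unigene that hits a hepatic lipase. The part of the 11 numbers in the results was not tested, but scaling without them ended 4 of all calls. These were integrin alpha-M, ADAMTS13 and MMP13 after fasting and integrin alpha-E under cold stress. In such bulk tissue, fewer cells of a type and less RNA per cell cannot be told apart.

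A KEGG number is not always carried by the protein that it names. For each unigene the Swiss-Prot hit was read, and 268 of the 314 unigenes hit a protein of the family in the definition. These held 49.4% of the fragments of the gene set. Their share of each library was 0.218% under normal feeding, 0.376% after fasting, 0.247% under cold and 0.258% under thermal stress. Cold stress was thus above normal feeding on them, whereas over all unigenes of the set, given above, it was below. A single unigene, Unigene7981, held 45.1% of the fragments of the gene set. It carries the number of MMP14, a membrane-bound metalloproteinase, but its Swiss-Prot hit is hemopexin, a plasma heme carrier whose domain metalloproteinases share. All unigenes hit the family for 35 of the 57 numbers, and for 10 numbers the family held under 50% of the fragments. In most of these, another protein led. The number for type VI collagen was led by an annexin A1 unigene (58.6% of its fragments) and that for type IX collagen by CCBE1 (80.6%). Those for laminin beta-2 and ADAMTS9 were each a single unigene, hitting MEGF9 and ADAMTS-like protein 4. The ADAM2 number was led by a retrovirus-related unigene (79.9%), and the ADAM1 unigene had no hit. Values restricted to family unigenes are therefore given beside the sums where this changed a call.

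After fasting, 17 of 57 numbers (29.8%) were called, 6 higher and 11 lower, against 30.3% of all 5457 numbers tested (9.68% higher and 20.6% lower). The share was near that background. Under cold stress, 18 of 56 (32.1%) were called, 9 higher and 9 lower, against a background of 25.7% (16.8% higher and 8.89% lower). Library totals set the scale here: with TMM or median-of-ratios scaling the cold stress split became 6 higher and 12 lower. The shares of all numbers or unigenes called higher and lower under those scalings are not given here. Rescaled splits, here and below, are therefore not read against a background. Under thermal stress 11 of 55 (20.0%) were called, 5 higher and 6 lower, against a background of 16.7% (6.49% higher and 10.2% lower). Over family unigenes alone, 18 of 53 numbers were called after fasting, 8 higher and 10 lower. Under cold stress this was 14 of 52 (26.9%), 9 higher and 5 lower, a share nearer the 25.7% of all numbers. Under thermal stress it was 10 of 51, 7 higher and 3 lower, so higher calls then outnumbered lower ones. The median log2 ratio of the gene set was 0.14 after fasting, 0.15 under cold and −0.10 under thermal stress, against −0.21, 0.21 and −0.13 over all numbers. TMM scaling moved the median of all numbers by 0.12, −0.21 and 0.15 in these comparisons. The comparisons share the normal feeding library, so a value that is odd there enters all 3. The largest adjusted p among called numbers was 0.0217 after fasting, 0.0425 under cold and 0.0196 under thermal stress.

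**Figure D1:**
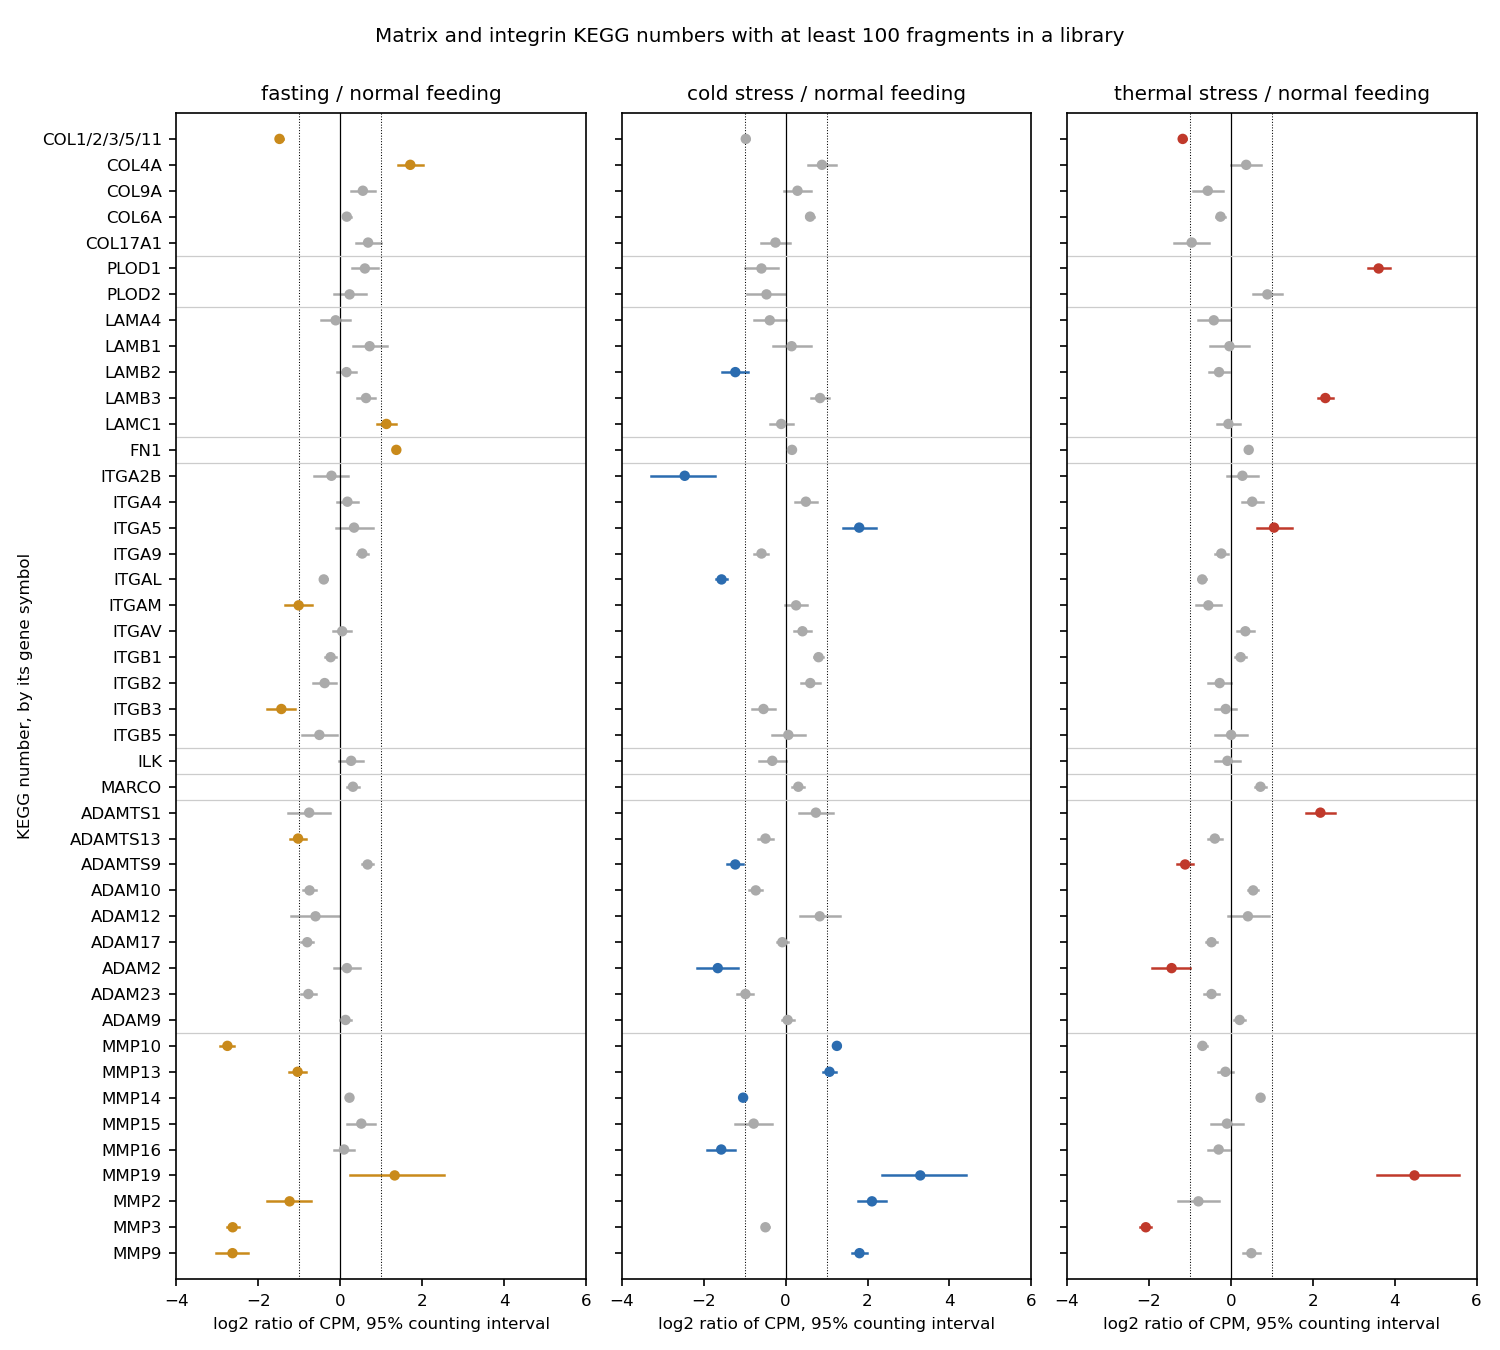
Log2 ratio of CPM against normal feeding for the 44 numbers with at least 100 fragments in a library, in 3 panels for fasting, cold stress and thermal stress, with 95% counting intervals. Coloured points were called, grey points were not, and dotted lines mark 2-fold. The points of MMP10, MMP13, MMP2 and MMP9 lie to the left after fasting and to the right under cold stress.

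Among the structural collagens, the number for fibrillar collagen chains (types I, II, III, V and XI) had 3892 fragments under normal feeding, 1552 after fasting, 1931 under cold and 1764 under thermal stress. Every treated library was lower than normal feeding. The log2 ratio was −1.49 after fasting (95% interval −1.57 to −1.40), called lower, and −1.18 under thermal stress (−1.26 to −1.10), also called lower. Yet only 14.8% of these fragments lay on unigenes that hit a collagen. A pair of contigs of cluster CL4366, which hit a glycolipid transfer protein domain-containing protein, accounted for 3072, 502, 632 and 1107 fragments in the order above. The other 46 unigenes of the number had 820, 1050, 1299 and 657 fragments. Their log2 ratios were 0.20 after fasting (0.06 to 0.33), 0.70 under cold stress (0.58 to 0.83) and −0.35 under thermal stress (−0.50 to −0.20). The family unigenes alone had 279, 531, 345 and 193 fragments, and the fasting log2 ratio over them was 0.77, of the opposite sign to the sum.

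Read by the Swiss-Prot hit, collagen chains were few in every library. All 71 chain unigenes together had 773 fragments under normal feeding, 1565 after fasting, 808 under cold and 568 under thermal stress. The fasting library was highest, at a log2 ratio of 0.86 (0.73 to 0.98), and the thermal stress library lowest, at −0.48 (−0.64 to −0.32). Type I chains, the main fibre of scar and bone, had 93 fragments under normal feeding, 235 after fasting, 200 under cold and 55 under thermal stress. The fasting log2 ratio was 1.18 (0.83 to 1.54). Type V chains, which nucleate type I fibrils, had 35, 77, 9 and 19 fragments in the same order. They were lowest under cold stress, at −1.92 (−3.16 to −0.83). Type VI chains, which form beaded microfibrils around cells, had 230, 356, 256 and 160 fragments, a range of less than 2-fold on either side of normal feeding. Markers of stellate cells, fibroblasts and smooth muscle, 5 numbers, summed to 27.6 CPM under normal feeding, 25.0 after fasting, 21.0 under cold and 34 under thermal stress. After fasting and under thermal stress 0 were called. Under cold stress 1 was called higher and 1 lower, beside 16.8% and 8.89% of all numbers. Both smooth muscle actin numbers are led by unigenes that hit skeletal muscle actin. The part of these markers in the collagen values was not tested.

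In the cold stress library, 5 collagen unigenes were counted that had 0 fragments in each of the other libraries. They hit the alpha-1 chain of type I (71 and 12 fragments), the alpha-2 chain of type I (31 and 14) and the alpha-1 chain of type III (57). These were picked out after their values were seen. The 4 type I unigenes had 128 fragments under cold stress, at least 43.9-fold above the floor of 3 fragments taken over the group. The other 14 type I unigenes did not share this: they had 93 fragments under normal feeding and 72 under cold stress, a log2 ratio of −0.33 (−0.79 to 0.13). Unigenes with at least 10 fragments in a library and 0 in the others numbered 211 of 57216 (0.369%) in the cold stress library, and 5 of 314 (1.59%) among the matrix and integrin unigenes. The normal feeding, fasting and thermal stress libraries had 188, 212 and 126 such unigenes over all and 0 among these genes. Vimentin, an intermediate filament of fibroblasts and other mesenchymal cells, showed the same pattern, at 1, 0, 32 and 0 fragments. Other markers on that list did not, with the PDGF receptor beta at 270, 275, 90 and 297 and decorin at 85, 63, 116 and 161. Whether these cells contributed was not tested.

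**Figure D2:**
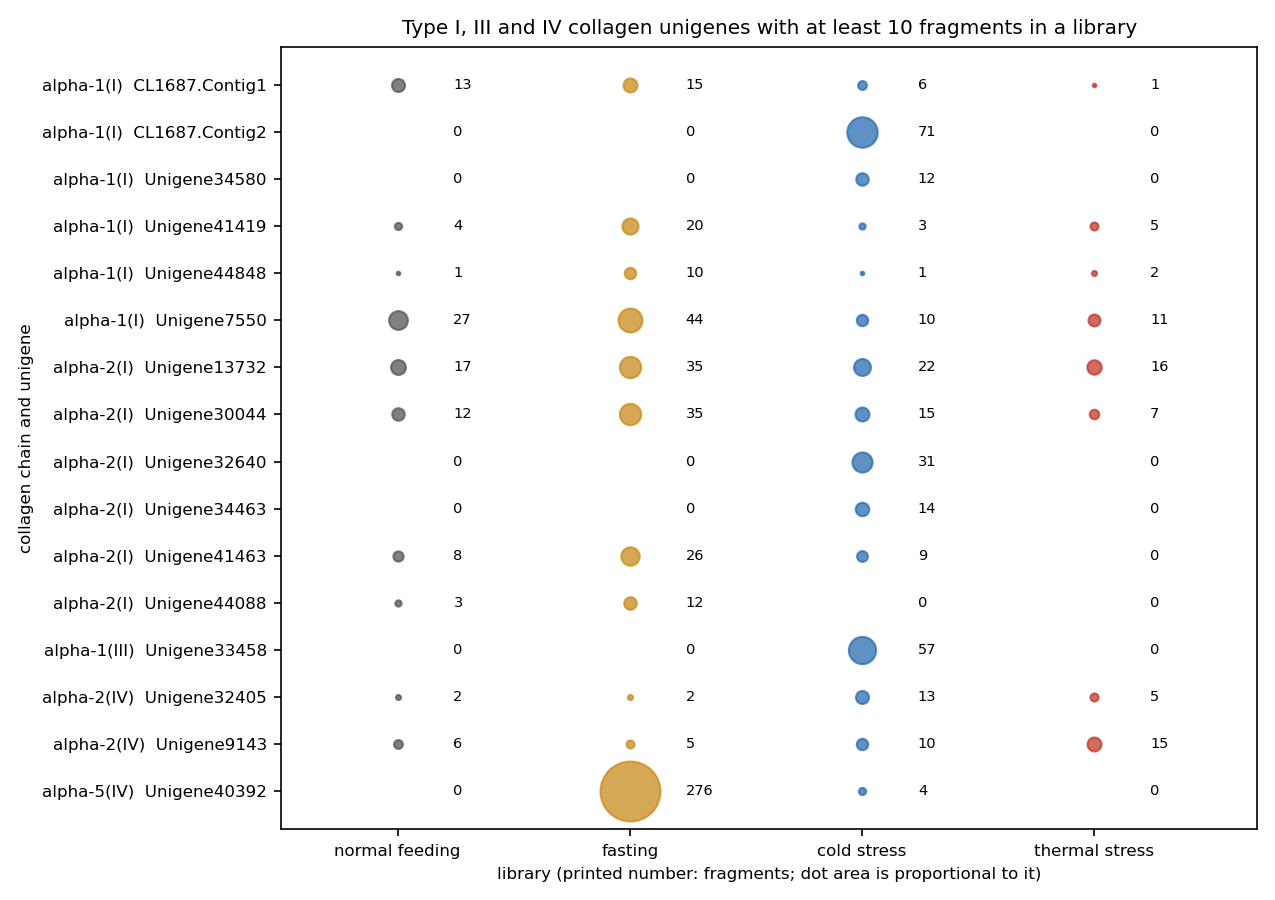
Fragments on 16 unigenes that hit a type I, III or IV collagen chain and reached 10 fragments in a library, with dot area proportional to fragments. The 5 unigenes seen in the cold stress library alone and the single type IV unigene seen mostly after fasting (276 fragments) stand apart from the rest.

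Type IV collagen, the sheet-forming collagen of basement membranes, had 110 fragments under normal feeding, 401 after fasting, 198 under cold and 146 under thermal stress. It was called higher after fasting, at a log2 ratio of 1.71 (1.40 to 2.03). A single unigene, Unigene40392, which hits the alpha-5(IV) chain, had 0 fragments under normal feeding, 276 after fasting, 4 under cold and 0 under thermal stress. Without it the number had 110 fragments under normal feeding and 125 after fasting, a log2 ratio of 0.03 (−0.36 to 0.41). Over the family unigenes alone, the counts of 11, 291, 31 and 27 were called higher in each treated library. The rise after fasting thus lay on that unigene. The number for type VI collagen had 1765, 2197, 2598 and 1517 fragments, that for type IX collagen 153, 250, 182 and 106, and that for type XVII collagen (a transmembrane collagen of epithelial anchoring sites) 144, 257, 118 and 76, and none was called in any comparison. The collagen unigenes of the type IX number were few, at 26, 31, 23 and 41 fragments, and not called either, with a log2 ratio under thermal stress of 0.62 (−0.12 to 1.39) against −0.56 for the sum. Within the type VI number a unigene of an interferon-inducible protein (CL2212.Contig1, 70, 415, 280 and 15 fragments) was called higher after fasting and lower under thermal stress. Under cold stress that unigene was higher and CL3460.Contig1, of anthrax toxin receptor 2, a receptor that binds type VI collagen, was lower, at 231 and 23 fragments. Types XIV and XVIII collagen never passed 7 fragments.

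Lysyl hydroxylase 1 (PLOD1), which hydroxylates collagen lysines so that chains can be crosslinked, was counted at 133 fragments under normal feeding, 225 after fasting, 86 under cold and 1660 under thermal stress. The thermal stress library was far above the others. Its log2 ratio was 3.61 (3.35 to 3.87), a 12.2-fold difference. CL2456.Contig2, of this enzyme, rose from 95 to 1455 fragments and CL2456.Contig1 from 10 to 195, while the third unigene, Unigene8143, which hits another oxygenase, had 28 and 10 and was called lower. Over the family unigenes PLOD1 was 15.3-fold higher under thermal stress. Lysyl hydroxylase 2 (PLOD2), which acts on the collagen telopeptides, had 98, 128, 69 and 186 fragments and was not called as a sum. Its family unigenes, at 42 fragments under normal feeding and 142 under thermal stress, were called 3.30-fold higher. After fasting Unigene14982, a PLOD2 unigene that hits a LINE-1 element, fell from 18 to 2 fragments while Unigene24645, of the enzyme, rose from 4 to 17. The collagen galactosyltransferase (GLT25D), which adds the sugar to those hydroxylysines, had 45, 61, 16 and 83 fragments and was called lower under cold stress at −1.45 (−2.37 to −0.60). Thermal stress was thus the library in which all 3 enzymes had their highest count.

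Among laminins, the gamma-1 chain (LAMC1, Unigene12942), shared by most laminin trimers, had 226 fragments under normal feeding, 550 after fasting, 204 under cold and 222 under thermal stress. It was called higher after fasting alone, at a log2 ratio of 1.12 (0.90 to 1.35). The beta-3 chain (LAMB3, CL900.Contig1), of the laminin that anchors epithelia, had 268, 462, 467 and 1358 fragments. Every treated library exceeded normal feeding, and thermal stress was called 4.95-fold higher (log2 ratio 2.31, 2.12 to 2.50). The beta-1 chain had 78, 143, 84 and 78 fragments and the alpha-4 chain, of vessel walls, 129, 133, 96 and 99, with neither called. The alpha-3/alpha-5 number had 50, 96, 93 and 79 fragments and was not called as a sum. Its laminin unigenes, at 12 fragments under normal feeding and 43 after fasting, were called higher at 1.68 (0.73 to 2.74), while 2 unigenes that hit attractin-like protein 1 were called in opposite directions there, Unigene20034 higher (15 and 36 fragments) and Unigene8614 lower (20 and 5). Under cold stress both were called higher and Unigene15763, of laminin alpha-3, lower, at 8 and 0 fragments. The laminin beta-2 number (284, 352, 118 and 238 fragments), called lower under cold stress at −1.23, is the MEGF9 unigene. In all, 1 of 6 laminin numbers was called higher and 0 lower after fasting, 0 and 1 under cold stress, and 1 and 0 under thermal stress. Of all numbers 30.3%, 25.7% and 16.7% were called in either direction. Over laminin unigenes alone, with 5 numbers tested, 2 were called higher after fasting, 0 were called under cold stress, and 1 was called higher under thermal stress.

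Fibronectin had 20541 fragments under normal feeding, 59128 after fasting, 22269 under cold and 28450 under thermal stress. The fasting library stood alone, 2.58-fold above normal feeding (log2 ratio 1.37, 1.34 to 1.39). Per length, in summed FPKM over family unigenes, fibronectin had the highest level of the gene set in every library: 164 under normal feeding, 410 after fasting, 193 under cold and 216 under thermal stress. The nearest level in FPKM was that of integrin alpha-L under normal feeding (88.0), after fasting (59.7) and under thermal stress (49.2), and that of the MMP10 number under cold stress (132). Such sums, like sums of fragments, may count reads that fit several contigs more than once where contigs overlap. CL1531.Contig1 held 95.4% of fibronectin fragments, and CL1531.Contig2 rose from 553 to 2674 after fasting. Most reads on these contigs fitted more than 1 place, and without such unigenes the fasting log2 ratio was 0.22, not called. That left out the CL1531 cluster, with 20396 of 20541 fragments under normal feeding and 58940 of 59128 after fasting. The 0.22 thus rests on the few fragments that remained, and cannot show whether the rise holds on reads that fitted 1 place. Under cold stress 1 fibronectin fragment unigene (Unigene27203) fell from 82 to 32, while Unigene23132 rose from 18 to 66 and CL1531.Contig2 from 553 to 1219, although the sum was not called.

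Integrin subunits were the largest group, and most were not called. Some of these passed the adjusted p but not the 2-fold limit, such as beta-1 under cold stress (log2 ratio 0.80, 0.69 to 0.92). Of 15 tested after fasting 1 was called higher and 3 lower. Of 15 under cold stress it was 2 and 3, and of 14 under thermal stress 1 and 1. Over all numbers 9.68% were called higher and 20.6% lower after fasting, 16.8% and 8.89% under cold stress, and 6.49% and 10.2% under thermal stress. Integrin alpha-L, the alpha chain of the leukocyte adhesion receptor LFA-1, had 2194 fragments under normal feeding, 1850 after fasting, 722 under cold and 1384 under thermal stress. It was lowest under cold stress, at a log2 ratio of −1.56 (−1.69 to −1.44), but 89.8% of the reads on its unigenes fitted more than 1 place. The alpha-E number had 33, 13, 16 and 15 fragments and was called lower in all 3 comparisons, with log2 ratios of −1.5, −1.0 and −1.17. Its single contig lies in the assembly cluster of alpha-L (CL2303) and hits alpha-L, so whether it is a separate gene is uncertain. Over that cluster the log2 ratio was −0.42 after fasting, −1.54 under cold and −0.71 under thermal stress. Integrin alpha-M, of myeloid cells, had 223, 123, 259 and 156 fragments and was called lower after fasting at −1.02 (−1.35 to −0.69), but with TMM scaling this was −0.90 and not called. Integrin beta-2 (Unigene22537), the partner of alpha-L and alpha-M, had 243, 208, 359 and 206 fragments and was not called.

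Of the platelet and thrombocyte integrin, the alpha-IIb number had 102 fragments under normal feeding, 98 after fasting, 18 under cold and 127 under thermal stress. Only the cold stress library departed, 5.51-fold lower (log2 ratio −2.46, −3.27 to −1.73). Its unigenes hit alpha-IIb, alpha-5 and alpha-8 in part, so which subunit they encode is uncertain. The partner beta-3 had 260, 107, 174 and 244 fragments. It was called lower after fasting, at −1.44 (−1.78 to −1.11), and not under cold stress. Thus the subunits of that pair were called in different libraries.

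Integrin alpha-5, the fibronectin receptor chain, had 71 fragments under normal feeding, 100 after fasting, 240 under cold and 151 under thermal stress. It was called higher under cold stress at 1.80 (1.41 to 2.20) and under thermal stress at 1.05 (0.64 to 1.48). Within it, Unigene2678 fell from 10 to 1 fragments after fasting and Unigene26975 rose from 7 to 26. Its partner beta-1, shared by many integrins, had 947, 897, 1609 and 1144 fragments and was not called. Its contig clusters differed. CL1592, whose Contig1 held 60.3% of the number, had 629 fragments under normal feeding and 1351 under cold stress, a log2 ratio of 1.14 (1.00 to 1.28). Cluster CL1336 had 185 and 165, a log2 ratio of −0.13 (−0.44 to 0.19). After fasting these clusters went opposite ways, at −0.89 and 0.81. Of the reads on the beta-1 unigenes, 96.9% fitted more than 1 place. Integrin beta-4, of epithelial hemidesmosomes, had 4, 26, 6 and 0 fragments and was called higher after fasting at 2.54 (1.01 to 4.52). Alpha-2, a collagen receptor, had 0, 2, 6 and 0 fragments, at least 2.06-fold higher under cold stress against the floor of 3, a call that was lost with TMM or median-of-ratios scaling. The remaining subunits were not called: alpha-V had 330, 380, 427 and 432 fragments, alpha-4 213, 268, 292 and 313, alpha-9 714, 1155, 462 and 622, and beta-5 106, 83, 108 and 109. Alpha-11 never passed 5 fragments.

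Integrin-linked kinase, which couples beta subunits to the cytoskeleton, had 179, 240, 139 and 173 fragments, and MARCO, a scavenger receptor of macrophages with a collagen-like stalk, had 679, 938, 819 and 1147, with neither called. Of 11 leukocyte marker numbers, all detected, 1 was called higher and 2 lower after fasting, 2 and 0 under cold stress, and 1 and 1 under thermal stress. Calls in either direction over all numbers were 30.3%, 25.7% and 16.7%. Not every marker number is led by the protein it names. The CD3 zeta number (156, 374, 126 and 203 fragments) is led by a unigene that hits CREG1. That of lymphocyte-specific protein 1 is led by one that hits non-muscle caldesmon. The leukocyte markers summed to 238 CPM under normal feeding, 268 after fasting, 229 under cold and 164 under thermal stress. Their part in the results on leukocyte integrins and metalloproteinases was not tested.

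Of the matrix metalloproteinase numbers, 5 (MMP10, MMP13, MMP2, MMP25 and MMP9) were called both lower after fasting and higher under cold stress. The share of all numbers called in both these ways is not given here, so this count is not read against a background. Of 10 numbers, 1 was called higher and 6 lower after fasting, with a median log2 ratio of −1.14, beside 20.6% of all numbers called lower. Under cold stress 6 were called higher and 2 lower, with a median of 1.08, beside 16.8% of all numbers called higher. With TMM or median-of-ratios scaling these became 1 higher and 5 lower after fasting and 4 higher and 2 lower under cold stress. Under thermal stress 1 was called higher and 1 lower, with a median of −0.22, beside 6.49% and 10.2% of all numbers.

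The number named MMP10 (stromelysin-2) had 2047 fragments under normal feeding, 338 after fasting, 4742 under cold and 1297 under thermal stress. Fasting was 6.76-fold lower (log2 ratio −2.76, −2.93 to −2.59) and cold stress 2.38-fold higher (1.25, 1.18 to 1.33). The number named MMP3 (stromelysin-1) had 2459, 444, 1700 and 597 fragments. Fasting was 6.18-fold lower (−2.63, −2.78 to −2.48) and thermal stress 4.22-fold lower (−2.08, −2.21 to −1.95). The numbers are not separate genes with certainty: their 9 contigs form a single assembly cluster (CL1444), most of them hit collagenase 3, and at least 95.4% of the reads on them fitted more than 1 place. A pair of contigs, 1 under each number, had the same counts in every library (343, 60, 194 and 69). Over the whole cluster there were 4506, 782, 6442 and 1894 fragments. That gave log2 ratios of −2.69 after fasting (−2.80 to −2.58), 0.56 under cold stress (0.50 to 0.61) and −1.28 under thermal stress (−1.36 to −1.21). The cold stress rise lay on CL1444.Contig2, at 638 fragments under normal feeding and 3786 under cold stress. The other 8 contigs had 3868 and 2656, a log2 ratio of −0.50 (−0.57 to −0.43). The fall after fasting did not depend on that contig, since the other 8 gave −2.63 (−2.75 to −2.51).

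MMP9 (98% on Unigene29199), the gelatinase of neutrophils and macrophages, had 350 fragments under normal feeding, 63 after fasting, 1189 under cold and 507 under thermal stress. It was 6.20-fold lower after fasting (log2 ratio −2.63, −3.04 to −2.24) and 3.49-fold higher under cold stress (1.80, 1.63 to 1.98). MMP2 (52.9% on Unigene16671), the gelatinase made mostly by stromal cells, had 93, 44, 390 and 55 fragments. It too was lower after fasting (−1.24, −1.79 to −0.71) and higher under cold stress (2.11, 1.78 to 2.45), and each of its 3 unigenes had more fragments under cold stress than in any other library. MMP13, a collagenase that opens the fibrillar triple helix, had 504, 273, 1030 and 471 fragments. Its log2 ratio was −1.04 after fasting (−1.26 to −0.83) and 1.07 under cold stress (0.92 to 1.23), both close to the 2-fold limit and not called with TMM scaling. Part of that number is a unigene of SID1 transmembrane family member 2, and the collagenase unigenes alone had 314, 67, 773 and 308 fragments. On those, fasting was 5.23-fold lower (−2.39, −2.79 to −2.0) and cold stress 2.53-fold higher (1.34, 1.15 to 1.53).

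MMP25 (57.6% on Unigene21583), a membrane-anchored enzyme of leukocytes, had 15 fragments under normal feeding, 2 after fasting, 31 under cold and 11 under thermal stress. With so few fragments the fasting interval was wide, −6.24 to −0.96 around a log2 ratio of −3.07. The cold stress ratio was 1.09 (0.15 to 2.08), with an adjusted p of 0.031 by the exact binomial test, and with TMM scaling 0.88 and not called. MMP19 (66.3% on Unigene10792), of epithelia and smooth muscle, went another way, at 10, 28, 95 and 229 fragments. All treated libraries were called higher, at log2 ratios of 1.33 after fasting (0.24 to 2.53), 3.29 under cold stress (2.35 to 4.39) and 4.48 under thermal stress (3.58 to 5.56). The last was a 22.4-fold difference, the largest of any called number when all unigenes of a number were summed.

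Of the membrane-type enzymes, the MMP14 number had 40903, 53311, 19392 and 69270 fragments and was called lower under cold stress at −1.04, but this is the hemopexin unigene. Its 5 MMP14 unigenes had 148, 229, 167 and 112 fragments and were not called. MMP15 had 120, 191, 68 and 115 fragments and was not called as a sum, but its family unigenes, at 58 fragments under normal feeding and 145 after fasting, were called higher at 1.16 (0.71 to 1.63). MMP16 (88.3% on CL1065.Contig2) had 281, 334, 92 and 234 fragments. It was 2.97-fold lower under cold stress (−1.57, −1.93 to −1.23), whereas MMP9, MMP2 and MMP13 were called higher in that library. Of the reads on the MMP16 unigenes, 77.2% fitted more than 1 place. Restricted to family unigenes, metalloproteinases had 2 numbers called higher and 6 lower after fasting, and 6 higher and 1 lower under cold stress. Over all numbers 9.68% were called higher and 20.6% lower after fasting, and 16.8% and 8.89% under cold stress.

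**Figure D3:**
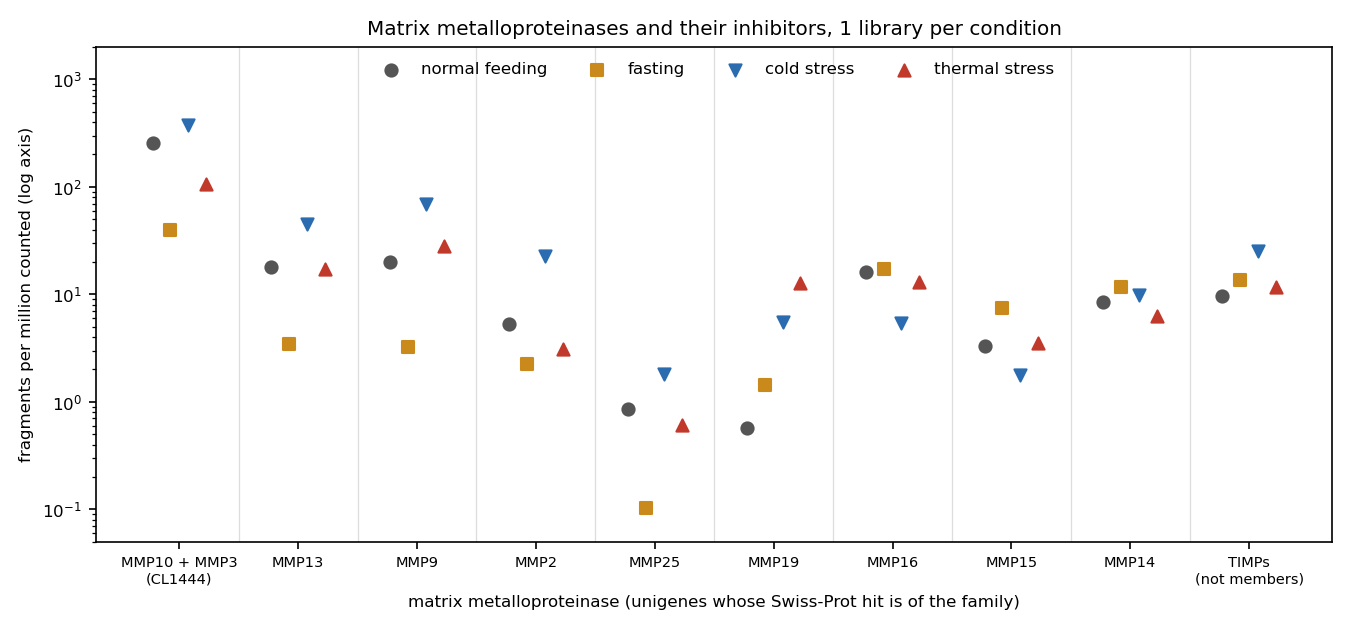
CPM on a log axis in each of the 4 libraries for the MMP10 and MMP3 contig cluster, other metalloproteinases over family unigenes, and TIMPs. The cluster, MMP13, MMP9, MMP2 and MMP25 are lowest after fasting and highest under cold stress, whereas MMP19 is highest under thermal stress and MMP16 lowest under cold stress.

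The 4 TIMP unigenes together had 170 fragments under normal feeding, 267 after fasting, 428 under cold and 211 under thermal stress. Cold stress was highest, 2.59-fold above normal feeding (log2 ratio 1.37, 1.11 to 1.64). TIMP2, which also helps to activate MMP2, made up most of this, at 160, 261, 373 and 197 fragments. Its unigenes differed: Unigene4338 had 68 fragments under normal feeding, 55 after fasting and 250 under cold stress, whereas Unigene22476 had 92, 206 and 123. TIMP3, which is bound to the matrix, had 10, 6, 55 and 14 fragments, with a log2 ratio of 2.50 under cold stress (1.51 to 3.64). In the cold stress library the counts of both inhibitors and of 6 metalloproteinase numbers were thus above those of normal feeding, while after fasting the summed TIMP log2 ratio was 0.49 (0.21 to 0.78).

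ADAM proteins shed proteins from the cell surface and ADAMTS proteins cut secreted matrix. Of 13 numbers 1 was called higher and 1 lower after fasting, 1 and 2 under cold stress, and 1 and 3 under thermal stress, while 30.3%, 25.7% and 16.7% of all numbers were called in either direction. With TMM or median-of-ratios scaling these became 1 and 0, 1 and 4, and 1 and 2. Over family unigenes alone 10 numbers were tested. Of these 1 was called higher and 1 lower after fasting, 0 were called under cold stress, and 1 and 1 under thermal stress. ADAMTS1, which cuts proteoglycans, had 85 fragments under normal feeding, 56 after fasting, 138 under cold and 396 under thermal stress. Thermal stress was 4.55-fold higher (log2 ratio 2.19, 1.84 to 2.54), and 4 of its 5 unigenes were called there. ADAMTS13, the protease of von Willebrand factor, which liver stellate cells make in mammals, had 36.8 CPM under normal feeding, 18 after fasting, 26.1 under cold and 28 under thermal stress, from at least 351 fragments in each library. It was lower after fasting at −1.03 (−1.22 to −0.84), but with TMM scaling this was −0.91 and not called, and 99.7% of the reads on its contigs fitted more than 1 place. ADAMTS2, which trims procollagen, had 34, 35, 17 and 4 fragments and was called lower under thermal stress at −3.12 (−5.08 to −1.64). The number of ADAMTS9 (701, 1241, 291 and 331 fragments), called lower under cold stress at −1.23 and under thermal stress at −1.12, is the ADAMTS-like protein 4 unigene. With TMM scaling the thermal stress ratio was −0.97 and not called.

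The sheddases ADAM10 (63.5% on CL1491.Contig2) and ADAM17 (55.4% on Unigene12979) were counted at 843, 559, 495 and 1259 and at 947, 604, 871 and 699 fragments, and neither was called. ADAM9 had 787, 959, 792 and 935 fragments, ADAM23 657, 427, 324 and 485, and ADAM12 60, 44, 104 and 82, also not called. ADAM11, known from neurons, had 9, 41, 13 and 5 fragments and was called higher after fasting at 2.03 (0.97 to 3.26). The ADAM2 number (149, 186, 46 and 56 fragments), called lower under both stresses, is the retrovirus-related unigene. The ADAM1 number, at 3, 2, 16 and 6 fragments, was called higher under cold stress, with a log2 ratio of 2.45 (0.65 to 4.88). ADAM8 had 47, 53, 63 and 67 fragments.

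Numbers that were not called need not be alike. Of 29 such numbers with at least 100 fragments in the pair after fasting, the interval of the ratio left out 0 in 18, with log2 ratios from −0.81 to 0.72. Under cold stress this held for 20 of 29 (−0.98 to 0.89), and under thermal stress for 24 of 32 (−0.96 to 0.89). At this depth those differences exceeded counting error but were under 2-fold. The same share over all numbers that were not called is not given here, so these counts are not read against a background.

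Counted per unigene, 61 of 307 (19.9%) were called after fasting, against 23.4% of all unigenes. Under cold stress it was 74 of 311 (23.8%) against 28.7%, and under thermal stress 57 of 302 (18.9%) against 18.1%. The higher and lower calls were 23 and 38 after fasting, 42 and 32 under cold stress, and 28 and 29 under thermal stress. Over all unigenes 9.09% were called higher and 14.3% lower after fasting, 17.4% and 11.3% under cold stress, and 7.16% and 10.9% under thermal stress. With TMM scaling the cold stress split was 33 and 40 and the thermal stress split 34 and 21. Unigenes of a number were called in opposite directions in 5 numbers after fasting, in 4 under cold stress and in 3 under thermal stress. Among them were the fibrillar and type VI collagen numbers in every comparison. The share of all numbers with such opposite calls is not given here, so these counts are not read against a background.

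A wider list of matrix and adhesion numbers that the rule did not take, 44 in all, was read in the same way. After fasting 9 were called higher and 4 lower (29.5%), under cold stress 7 and 5 (27.3%), and under thermal stress 5 and 1 (13.6%), with median log2 ratios of 0.07, −0.04 and 0.02. These shares were near the 30.3%, 25.7% and 16.7% of all numbers. Perlecan, the heparan sulfate proteoglycan of basement membranes, had 4973 fragments under normal feeding, 11194 after fasting, 4578 under cold and 5655 under thermal stress, and was called higher after fasting at 1.01 (0.96 to 1.06). Nidogen, which links laminin to type IV collagen, had 684, 478, 664 and 529 fragments and was not called. Vitronectin, a plasma adhesion protein made by hepatocytes, had 17605, 9672, 19213 and 18423, and was called lower after fasting at −1.02 (−1.06 to −0.99), close to the 2-fold limit. The liver's other soluble adhesion protein, fibronectin, was called in the opposite direction there. Lysyl oxidase-like enzymes, which crosslink collagen after hydroxylation, had 138, 423, 123 and 291 fragments, and were called higher after fasting at 1.46 (1.18 to 1.75) and under thermal stress at 1.04 (0.74 to 1.34). Tenascin, a matrix protein of repair, had 40, 36, 9 and 118, called lower under cold stress at −2.11 (−3.34 to −1.05) and higher under thermal stress at 1.53 (1.00 to 2.08).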

How the data were processed

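Liver RNA of 4 groups, 1 library each, was sequenced as paired ends. The authors assembled reads without a genome (Trinity in the methods, SOAPdenovo in the results) and annotated unigenes by BLASTx and KAAS. The aligner is not given in the sources used here. The authors deposited raw fragment counts per unigene, without normalization, and FPKM values, which divide a count by unigene length and library total. The deposited coverage tables gave reads that fitted 1 place or several. The authors' comparison columns (log ratios and p-values) were not used, and 0 sample columns were left unused.

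Counts were summed by KEGG number and tested per pair of libraries as described above, with Python 3.11.15, pandas 2.3.3, numpy 2.4.6 and scipy 1.17.1. Alternatives used edgeR 4.0.16 and the size factors of DESeq2 1.42.0 in R 4.3.3, and figures used matplotlib 3.10.9. The scripts were tested on simulated data. Samples were grouped by their source labels. A fold against a library at 0 used the floor of 3 fragments. Numbers with at least 100 fragments in a library were named with their fragments, and called numbers with their statistics, as were unigenes that held at least 50% of a number or were called in opposite directions. Members and lists were chosen with earlier results of these data known.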

Additional observations from a re-analysis of the deposited data

Results flagged for a closer look

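The fasting and cold stress libraries lie on opposite sides of normal feeding for 5 metalloproteinase numbers, so they were set beside each other directly, as 2 libraries without replicates. The numbers were chosen because they were called lower after fasting and higher under cold stress, and that choice fixes the direction of the ratio, so the values are a description and not a further test. MMP10 had 338 fragments after fasting and 4742 under cold stress, a log2 ratio of cold stress to fasting of 4.01 (95% interval 3.85 to 4.17), which is 16.1-fold. The whole contig cluster that MMP10 shares with MMP3 had 782 and 6442 fragments, a 9.45-fold difference, and without CL1444.Contig2 it had 699 and 2656, a 4.36-fold difference. MMP9 had 63 and 1189 fragments, a log2 ratio of 4.44 (4.07 to 4.83), which is 21.7-fold. MMP2, at 44 and 390, gave 3.35 (2.89 to 3.83), and MMP13, at 273 and 1030, gave 2.11 (1.92 to 2.31), which is 4.33-fold. The collagenase unigenes of MMP13 alone had 67 and 773 fragments, a log2 ratio of 3.73 (3.37 to 4.11) and a 13.2-fold difference. These restricted values were added after the data were seen. MMP25 rested on 2 and 31 fragments, and its log2 ratio of 4.15 had an interval from 2.18 to 7.26.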

How the results depend on the processing

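No paired analysis was possible because each condition has 1 library. The counts of called numbers depended most on the spread assumed between libraries, which these data cannot give. With edgeR's exact test and an assumed coefficient of variation of 0.2, called numbers were 11 of 57 after fasting, 11 of 56 under cold and 7 of 55 under thermal stress, beside 23.2%, 18.0% and 8.21% of all numbers. With 0.4 they were 0, 0 and 2 (PLOD1 and MMP19), when 1.78%, 0.862% and 0.919% of all numbers were called. At an unadjusted p under 0.05 with the exact binomial test all 46 calls were retained. This had to be so, because an adjusted p is never below the unadjusted p, and it is no check of the calls. At 1.5-fold the counts were 27, 33 and 20, beside 48.9%, 44.3% and 33.5% of all numbers. Leaving out ADAM proteins, collagen-modifying enzymes and associated proteins left 6 calls under thermal stress, where the main test called 16.7% of all numbers. Among the 307, 311 and 302 unigenes tested, a coefficient of variation of 0.2 gave 33 calls after fasting, 47 under cold and 31 under thermal stress. A value of 0.4 gave 1, 5 and 4. Without unigenes of mostly shared reads, 33 unigenes were called after fasting and 37 under thermal stress. The shares of all unigenes called at these settings are not given here, so these unigene counts are not read against a background.

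The fibrillar collagen number turned from lower to higher after fasting, at a log2 ratio of 0.28 without unigenes of mostly shared reads and 0.77 on family unigenes, and MMP14 under cold stress was 0.21 on family unigenes, an alternative added after the annotation was seen. Of the 46 called results, TMM and median-of-ratios scaling each ended 7, totals without pancreas numbers 4 and summed FPKM 3. Calls on under 50 fragments in both libraries (integrin alpha-E, alpha-2 and beta-4, ADAM1, ADAM11, ADAMTS2, GLT25D, MMP25, and MMP19 after fasting) are limited by depth.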

Other observations

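Growth factors and proteases that act on the matrix were read from the wider list of 44 numbers. Transforming growth factor beta-2, which promotes matrix synthesis, had 192 fragments under normal feeding, 24 after fasting, 31 under cold and 213 under thermal stress. It was called lower after fasting, at a log2 ratio of −3.16 (95% interval −3.84 to −2.54), and under cold stress, at −2.59 (−3.19 to −2.04). Transforming growth factor beta-3 had 21, 118, 18 and 11 fragments, and was called higher after fasting at 2.33 (1.65 to 3.08). Thrombospondin, which activates latent TGF-beta, had 239, 265, 724 and 492 fragments and was called higher under cold stress at 1.64 (1.43 to 1.86) and under thermal stress at 1.01 (0.78 to 1.24). The TGF-beta receptor type-2 had 590, 532, 1198 and 598 fragments, and was called higher under cold stress at 1.06 (0.92 to 1.21), close to the 2-fold limit. Receptor III, at 38, 57, 25 and 83, was called higher under thermal stress at 1.09 (0.52 to 1.69). Transforming growth factor beta-1 (110, 184, 108 and 135), receptor type-1 (250, 255, 363 and 258) and connective tissue growth factor (103, 120, 140 and 192) were not called in any comparison. These values are scaled by library totals, and TMM scaling moved the median of all numbers under cold stress by −0.21.

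Bone morphogenetic protein 1, the protease that trims the procollagen C-propeptide, had 4268 fragments under normal feeding, 3875 after fasting, 9018 under cold and 5739 under thermal stress. It was called higher under cold stress at 1.12 (1.07 to 1.17) with library totals, also close to the 2-fold limit. Meprin A beta, a membrane protease that can also process procollagen, had 131, 930, 359 and 105 fragments, and was called higher after fasting at 2.67 (2.40 to 2.94) and under cold stress at 1.49 (1.2 to 1.79). Vinculin, which ties integrin adhesions to actin, had 394, 462, 139 and 338 fragments and was called lower under cold stress at −1.46 (−1.75 to −1.18). Several numbers of that list are led by other proteins, among them agrin by a Kazal-type protease inhibitor, the hyaluronan-mediated motility receptor by tuftelin, and plasminogen activator inhibitor-1 by glia-derived nexin.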
